A study of Homo sapiens with 27 samples.

Results

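DLD-1 cells, a human colorectal cancer (CRC) line, were made resistant either to fluorouracil (5-FU) or to oxaliplatin (OX), and the RNA of the resistant cells was compared with each other. The comparison takes the 3 libraries labelled as 5-FU-resistant DLD-1 (5-FU res) against the 3 labelled as OX-resistant DLD-1 (OX res), which are 6 of the 27 libraries of the series. It asks which transcripts set a CRC line adapted to an antimetabolite apart from the same line adapted to a platinum drug. Higher and lower below always refer to 5-FU res cells relative to OX res cells.

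5-FU is a uracil analogue that is converted to nucleotides. Its deoxynucleotide form blocks thymidylate synthase, the enzyme that makes thymidylate for DNA, and its other forms enter RNA and DNA. Oxaliplatin binds DNA bases and links them within and between strands, and these lesions are handled by nucleotide excision repair, Fanconi anaemia proteins and homologous recombination. Cells under stress of the endoplasmic reticulum (ER) start the unfolded protein response, in which ATF6, XBP1 and the kinase PERK raise chaperones and degradation factors. PERK and related kinases also phosphorylate eIF2-alpha, which lets ATF4 be translated and turn on genes of amino acid supply. Colorectal epithelium is a simple epithelium built on the keratins KRT8, KRT18 and KRT19, whereas stratified squamous epithelium makes a cornified envelope from involucrin and small proline-rich proteins.

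The 5-FU res cells (n = 3 libraries) and the OX res cells (n = 3) came from cultures exposed for about 6 months, in a range of 5 to 70 µM 5-FU and of 5 to 35 µM OX that is stated for the 3 lines of the series together. Untreated DLD-1 cells (WT, n = 3) entered no test of the main comparison and are given beside it. The sources used here do not say whether each resistant line is a clone, whether drug was present at harvest or whether replicates were grown apart. The p-values therefore measure the spread between libraries, which may be technical. HCT116 and SW480, 2 further CRC lines, had 6 resistant libraries each, treated in the same way.

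The deposited unit is FPKM, a read density per transcript length and sequencing depth. Each value was rescaled so that all libraries have the same total, which gives TPM, the relative share of transcripts. Library sums of FPKM were 501041 to 540268 in 5-FU res, 455221 to 471481 in OX res and 499557 to 515400 in WT. Within a group the 6 resistant libraries correlated at 0.992 to 0.993 across genes, and between groups at 0.979 to 0.981, as a description over genes that are not independent. All 6 were nearer to DLD-1 WT (0.987 to 0.989) than to HCT116 WT (0.913 to 0.918) or SW480 WT (0.911 to 0.914). Of the colorectal epithelium markers, KRT8, KRT18, KRT19, EPCAM, CDH1, CDH17 and CDX2 were present in every library, while VIL1 and CDX1 stayed under 1 TPM. KRT20 (0.509 to 0.923 TPM in 5-FU res and 2.42 to 3.68 TPM in OX res), LGALS4 and GPA33 were at most 3.68 TPM in the resistant libraries, below every WT library. Summed fibroblast markers reached at most 2.03 TPM in 5-FU res and 1.1 TPM in OX res, summed leukocyte markers 6.47 and 9.21 TPM, and summed endothelial markers 32.2 and 39.1 TPM, most of it EGFL7. COL1A2, DCN, LUM, THY1, POSTN, CD3E, CD3D, MS4A1 and KDR were listed at 0 in all 6. A small RNA gene, MIR5684, took 5.1% of the TPM of 5-FU res replicate 3 and was listed at 0 in the other 5 resistant libraries, and OX res replicate 2 was the shallowest at 0.656 of the depth of WT replicate 1.

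The test was a limma fit of log2(TPM + 1), run on 13264 genes that reached at least 1 TPM in 3 or more of the 6 libraries. Fold changes on that scale understate the change of low genes. At an adjusted p under 0.05, 2360 genes were higher (17.8% of the genes tested) and 5793 were lower (43.7%). With a log2 fold change beyond 1 as well, 1146 genes counted as changed (8.64%). Of these, 342 were higher (2.58%) and 804 were lower (6.06%). The 3 libraries of a group did not overlap those of the other in 1134 of the 1146. Groups without overlap were common, at 8844 of all 13264 genes tested. The balance depends on the scaling. Over all genes the median was −0.16 (log2 fold change) on TPM and −0.0028 after median-of-ratios scaling, which gave 436 higher and 566 lower genes, so that the share of higher genes moved from 29.8% to 43.5%. Under both scalings together, 340 genes were higher and 566 lower. At an adjusted p under 0.05 alone, median-of-ratios scaling put 4003 genes higher and 4165 lower of the 13264 tested. List counts after that scaling are to be read against these numbers. The plot of the difference against the level shows the downward shift of the bulk of genes and the long tail of lower genes.

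**Figure D1:**
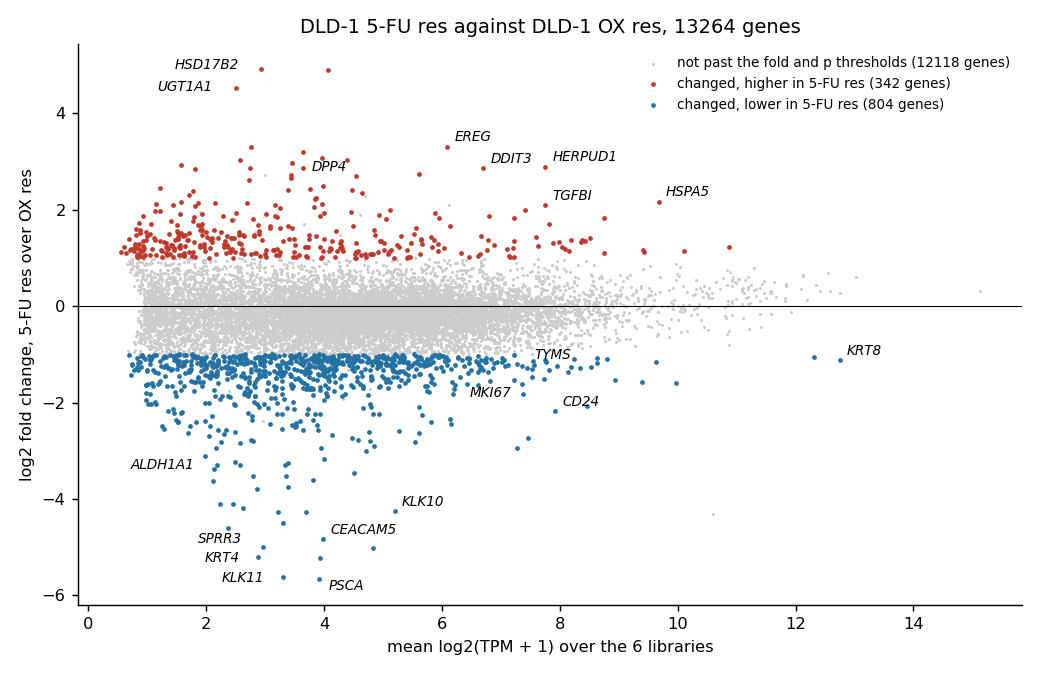
Each point is a gene, with its mean log2(TPM + 1) over the 6 DLD-1 libraries on the x axis and the log2 fold change of 5-FU res over OX res on the y axis. Red points are the 342 changed genes that were higher, blue points the 804 that were lower, and the lower tail reaches −5.67 (PSCA) while the upper reaches 4.91 (HSD17B2), the highest of the named genes.

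Genes of the unfolded protein response had the highest median of the 33 gene lists set against these data. Of 26 list members tested, 24 were higher (17.8% of all genes), 1 was lower and 1 did not pass the test, with a median log2 fold change of 1.04 against −0.16 over all genes. The ATF4 amino acid response list moved the same way, with 42 of 45 members higher, 1 lower and 2 not called, and a median of 0.83. After median-of-ratios scaling the counts were 24 and 0 of 26, and 43 and 1 of 45, against 4003 and 4165 of all 13264 genes. In bulk libraries, a change in every cell and a change in the share of cells cannot be told apart, here and below.

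Several promoters of these genes carry the binding motifs through which the response is known to work. The 6 promoters below were picked because they hold a match and so show the motifs. Among the leading genes of the 2 lists, DNAJB9, DDIT3, DDIT4 and PHGDH held none of the 3 motifs in this window. They come from RefSeq on GRCh38.p14, as 250 bases before and 50 bases after the start site, and run 5′ to 3′ on the strand of the gene. Capitals mark every match on either strand to 3 motifs: the ER stress element (ERSE, CCAAT and CCACG separated by 9 bases), ERSE-II (ATTGG and CCACG separated by 1 base) and the C/EBP-ATF response element bound by ATF4 (CARE, TGATGNAA). Coordinates are chr9:125241294-125241593 (minus strand) for HSPA5, chr12:103930160-103930459 (plus) for HSP90B1, chr22:49918384-49918683 (plus) for CRELD2, chr16:56931892-56932191 (plus) for HERPUD1, chr7:97872359-97872658 (minus) for ASNS and chr15:40953221-40953520 (plus) for CHAC1.
HSPA5: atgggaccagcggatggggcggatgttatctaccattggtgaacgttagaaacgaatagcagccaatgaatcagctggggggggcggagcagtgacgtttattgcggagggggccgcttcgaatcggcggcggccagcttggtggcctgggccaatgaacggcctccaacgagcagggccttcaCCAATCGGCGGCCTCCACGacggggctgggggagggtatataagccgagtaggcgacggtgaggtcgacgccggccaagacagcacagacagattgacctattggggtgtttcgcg
HSP90B1: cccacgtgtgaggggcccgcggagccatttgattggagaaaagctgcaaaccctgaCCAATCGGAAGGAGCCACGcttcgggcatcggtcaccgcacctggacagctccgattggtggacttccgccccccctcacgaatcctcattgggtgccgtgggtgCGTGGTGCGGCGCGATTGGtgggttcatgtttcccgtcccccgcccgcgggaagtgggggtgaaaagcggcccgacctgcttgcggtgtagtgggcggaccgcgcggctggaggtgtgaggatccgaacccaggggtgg
CRELD2: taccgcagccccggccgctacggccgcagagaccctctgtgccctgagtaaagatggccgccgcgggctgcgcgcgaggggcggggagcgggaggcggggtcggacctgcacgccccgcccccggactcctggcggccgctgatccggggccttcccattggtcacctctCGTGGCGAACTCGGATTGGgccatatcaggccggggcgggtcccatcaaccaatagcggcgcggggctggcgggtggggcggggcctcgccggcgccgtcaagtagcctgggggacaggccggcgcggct
HERPUD1: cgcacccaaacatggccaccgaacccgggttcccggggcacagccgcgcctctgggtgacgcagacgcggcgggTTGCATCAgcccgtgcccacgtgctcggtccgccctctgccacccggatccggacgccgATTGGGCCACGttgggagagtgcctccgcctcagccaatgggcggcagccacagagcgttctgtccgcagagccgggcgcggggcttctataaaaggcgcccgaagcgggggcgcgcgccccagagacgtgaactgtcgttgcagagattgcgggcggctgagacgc
ASNS: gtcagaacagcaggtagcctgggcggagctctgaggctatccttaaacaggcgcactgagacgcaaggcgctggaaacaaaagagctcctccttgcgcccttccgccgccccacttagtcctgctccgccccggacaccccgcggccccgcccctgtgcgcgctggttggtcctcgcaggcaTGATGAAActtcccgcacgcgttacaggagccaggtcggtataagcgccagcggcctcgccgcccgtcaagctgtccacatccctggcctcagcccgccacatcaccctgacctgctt
CHAC1: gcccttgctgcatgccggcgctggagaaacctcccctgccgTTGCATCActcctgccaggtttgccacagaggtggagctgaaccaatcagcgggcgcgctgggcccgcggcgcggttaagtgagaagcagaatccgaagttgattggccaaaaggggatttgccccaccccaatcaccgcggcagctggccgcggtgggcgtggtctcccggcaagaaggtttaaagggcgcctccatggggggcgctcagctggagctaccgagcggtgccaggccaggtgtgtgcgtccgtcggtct
HSPA5 holds an ERSE at 66 to 48 bases before its start, HSP90B1 holds 2, at 194 to 176 and at 89 to 71 bases before it, and CRELD2 holds 1 at 80 to 62 bases. HERPUD1 holds an ERSE-II at 117 to 107 bases and a CARE at 176 to 169 bases before its start, ASNS a CARE at 68 to 61 bases and CHAC1 a CARE at 209 to 202 bases. RefSeq promoters matched 24 of the 26 unfolded protein response genes, and 7 of them (29.2%) held an ERSE, against 22 of 27305 promoters in all (0.0806%). ERSE-II was in 3 of the 24 (12.5%), against 0.0549% of all promoters. CARE was in 6 of 26 matched ATF4 genes (23.1%), against 3.67% of all promoters. Among matched promoters of all genes tested, the shares were 0.143% for ERSE, 0.112% for ERSE-II and 1.6% for CARE. The lists hold known genes of these responses, so high shares were built in and say nothing about these libraries. A match describes letters in the window and was not tested as a site.

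HERPUD1, a membrane protein of ER-associated degradation, led the list. Its level was 592, 599 and 565 TPM in the 3 5-FU res libraries, against 76.8, 79 and 78.3 TPM in the OX res libraries, and 110.2 to 114.3 TPM in WT. The log2 fold change was 2.89 (SE 0.0498, adjusted p = 8.81e-12). HSPA5, the chaperone BiP, had 1786, 1794 and 1635 TPM in 5-FU res cells, against 385, 394 and 381 TPM in OX res cells and 483 to 488 TPM in WT, a log2 fold change of 2.16 (SE 0.0542, adjusted p = 6.94e-11). For both genes every 5-FU res library stood above every other DLD-1 library, and the OX res libraries were the lowest of the 3 groups. DNAJB9, a BiP cochaperone, and SDF2L1, which binds ER chaperone complexes, followed with log2 fold changes of 2.00 and 1.87. DNAJB9 averaged 68.4 ± 5.1 TPM in 5-FU res and 16.4 ± 1.8 TPM in OX res (SD, n = 3 each). The other higher members ranged down to 0.43 for SEC61B, a subunit of the translocation channel, and included HSP90B1 (1.14), CRELD2 (1.45), PDIA4 (1.41), MANF (1.32), HYOU1 (1.30) and EDEM1 (1.17), which fold, retain or discard ER proteins. The sensor ERN1 and the transcription factor XBP1 were higher by 1.10 and 0.87, DERL1 was lower at −0.15, and ATF6 itself had −0.11 (adjusted p = 0.191).

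DDIT3, the stress transcription factor CHOP, had 286, 282 and 273 TPM in 5-FU res cells, against 36.1, 33.9 and 43.5 TPM in OX res cells, and 53.6 to 60.5 TPM in WT. Its log2 fold change was 2.86 (SE 0.0804, adjusted p = 1.49e-10). DDIT4, an inhibitor of mTOR signalling, had 334, 349 and 325 TPM in 5-FU res cells against 83.9, 85.8 and 82.7 TPM in OX res cells, with WT between them at 151 to 173 TPM. The groups did not overlap for either gene. PHGDH, the first enzyme of serine synthesis, had 817, 847 and 779 TPM in 5-FU res cells against 229.8, 234 and 218 TPM in OX res cells (log2 difference 1.84). SESN2, FGF21, ATF3, SLC7A11, CHAC1, ASNS and TRIB3, all known targets of the ATF4 arm, were higher by 1.80, 2.08, 1.67, 1.47, 1.43, 1.38 and 1.38. FGF21 was low, at 5.46 to 7.87 TPM in 5-FU res and 0.47 to 1.04 TPM in OX res. The aminoacyl-tRNA synthetases of the list did not all move alike, from WARS at 1.43, SARS at 1.36 and GARS at 1.19 to LARS at −0.38, the only lower member. GDF15, which the study examined as a stemness factor, is an ATF4 target that did not pass the test. It had 754, 838 and 839 TPM in 5-FU res cells and 842, 696 and 682 TPM in OX res cells, where the groups overlapped, against 297 to 324 TPM in WT (log2 fold change 0.14, SE 0.0796, adjusted p = 0.16). Median-of-ratios scaling put GDF15 at 0.30 with an adjusted p of 0.0119, and it also passed without OX res replicate 1 (0.23, adjusted p = 0.00844).

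WT levels lay between those of the resistant groups for many of these genes. For the ATF4 list, 39 of 45 members had every 5-FU res library above every WT library (25.2% of all genes tested did), and 36 had every OX res library below every WT library (13.7% of all genes). For the unfolded protein response, 23 of 26 were above WT in 5-FU res and 13 were below WT in OX res. The summed TPM of that list was 9620 to 10480 in 5-FU res, 4576 to 4754 in OX res and 5185 to 5243 in WT.

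**Figure D2:**
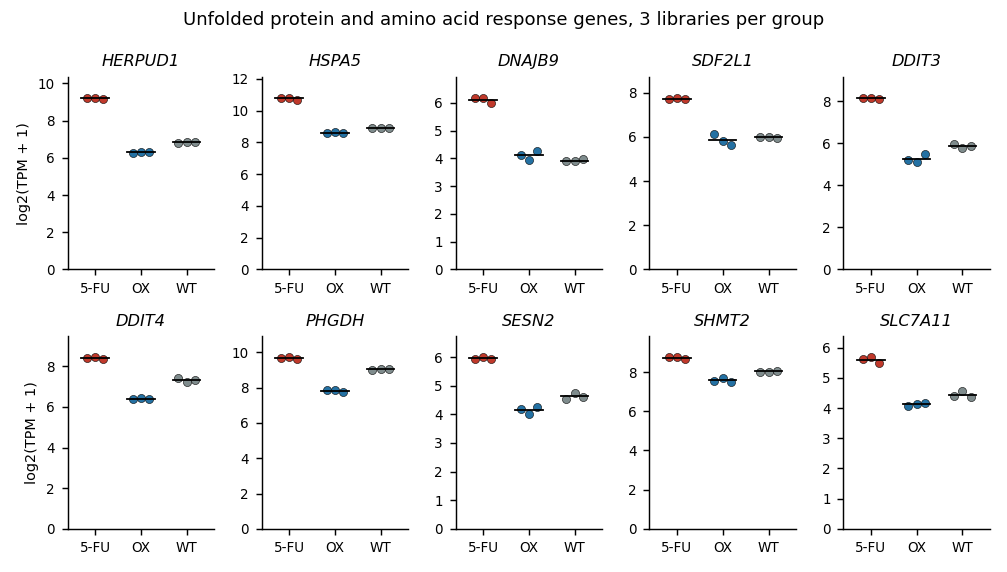
Levels of 10 unfolded protein and amino acid response genes on a log2(TPM + 1) scale, with a point per library and a bar at the mean of the 3 libraries of 5-FU res, OX res and WT DLD-1 cells. All 3 5-FU res points lie above the other 6 points in each of the 10 panels.

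Keratins and cornification genes had the lowest median of the lists. Of that list, 25 of 27 members tested were lower (43.7% of all genes), 0 were higher, and KRT81 and EVPL did not pass, with a median of −1.63. Many members passed the filter through OX res alone. Of the 15 with a mean of at least 1 TPM in both groups, 13 were lower and 0 higher, with a median of −1.10. KRT4, a keratin of non-cornifying squamous epithelium, had 0.15, 0.25 and 0.25 TPM in 5-FU res cells, against 41.6, 47.4 and 42.6 TPM in OX res cells, and 4.28 to 4.78 TPM in WT (log2 fold change −5.20, SE 0.101, adjusted p = 1.8e-11). SPRR3 and involucrin (IVL), cornified envelope proteins, reached at most 0.82 and 0.085 TPM in 5-FU res cells. OX res cells had 47.2, 44.5 and 38.4 TPM of SPRR3 and 25.2, 25.6 and 23 TPM of IVL, where WT had at most 0.23 and 1.39 TPM. Both genes were high in the OX res libraries and at most 1.39 TPM in the others. SPRR1A, a near copy of SPRR1B in the same cluster, averaged 0.339 TPM in 5-FU res and 10.6 TPM in OX res and was listed at 0 in WT. SCEL (−3.60), KRT15 (−2.65), KRT16 (−2.49) and KRT6A (−1.82) were lower too. The abundant simple epithelial keratins also differed: KRT8 had 4706, 4877 and 4449 TPM in 5-FU res cells against 10610, 9983 and 9849 TPM in OX res cells, with WT at 4564 to 4798 TPM, so OX res stood apart from both others. The OX res libraries were above every WT library for 24 of the 27 list members (45.8% of all genes), and the 5-FU res libraries below every WT library for 9 (31.3% of all genes).

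The secreted serine proteases of the kallikrein cluster are activated in the shedding of stratified epithelium. KLK11 had 0.6, 0.49 and 0.15 TPM in 5-FU res cells, against 67.9, 69.1 and 66.5 TPM in OX res cells and 19.9 to 22.1 TPM in WT (log2 fold change −5.62). KLK10 had 7.62, 7.67 and 6.91 TPM in 5-FU res, against 163, 160.4 and 155 TPM in OX res and 75.9 to 82.4 TPM in WT (log2 fold change −4.25, SE 0.0651, adjusted p = 4.48e-12). For both proteases WT lay between the resistant groups, with no overlap. KLK6 (−2.24), KLK12 (−1.91) and KLK1 (−1.54) were lower with means above 1 TPM in both groups, KLK3 had −0.02 (adjusted p = 0.933), and KLK11, KLK7 and KLK15 passed the filter through OX res. This cluster, the CEACAM, UGT1A, SPRR and uroplakin families were picked after their values were seen.

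PSCA, a surface protein of urothelium and stomach, was the lowest of the named genes at −5.67 (SE 0.158, adjusted p = 1.42e-10). It had 1.94, 0.78 and 0.82 TPM in 5-FU res cells, against 109.9, 109 and 102 TPM in OX res cells and 48.6 to 53.9 TPM in WT. UPK2, a uroplakin of the urothelial plaque, reached at most 0.65 TPM in 5-FU res and had 19.1 to 24.8 TPM in OX res, and UPK3B, in a part of chromosome 7 whose genes had a median of −0.44, averaged 3.23 TPM in 5-FU res and 19 TPM in OX res. UPK3BL had −0.18 (adjusted p = 0.182), with groups that overlapped. CEACAM5, the carcinoembryonic antigen, had 2.23, 1.58 and 2.11 TPM in 5-FU res cells, against 76.9, 92 and 82 TPM in OX res cells and 54.2 to 61.6 TPM in WT (log2 fold change −4.84). CEACAM6 averaged 2.02 ± 0.36 TPM in 5-FU res, 33.9 ± 3.1 TPM in OX res and 38.8 ± 1.6 TPM in WT (SD, n = 3 each). Both CEACAM genes were therefore low in 5-FU res. In OX res, every CEACAM5 library was above every WT library, and every CEACAM6 library was below every WT library. Since they are close paralogs, reads may be split between them. CEACAM1 was lower too (−2.49), whereas CEACAM19 was higher (0.33, adjusted p = 0.0304). C6orf15 and IGFL1 showed the other pattern, with WT at 0.88 to 1.77 and 0.47 to 1.02 TPM, near the 5-FU res levels of 1.21 to 1.72 and 0.75 to 1.39 TPM, while OX res had 84.2 to 97.6 and 43.7 to 48.9 TPM. FAM3D, LY6G6C, SPTSSB, C1QTNF9B and its antisense gene C1QTNF9B-AS1 complete the 15 largest falls, from −4.27 to −3.76. The sources do not state whether reads were assigned by strand, and C1QTNF9B and its antisense gene cannot be told apart.

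**Figure D3:**
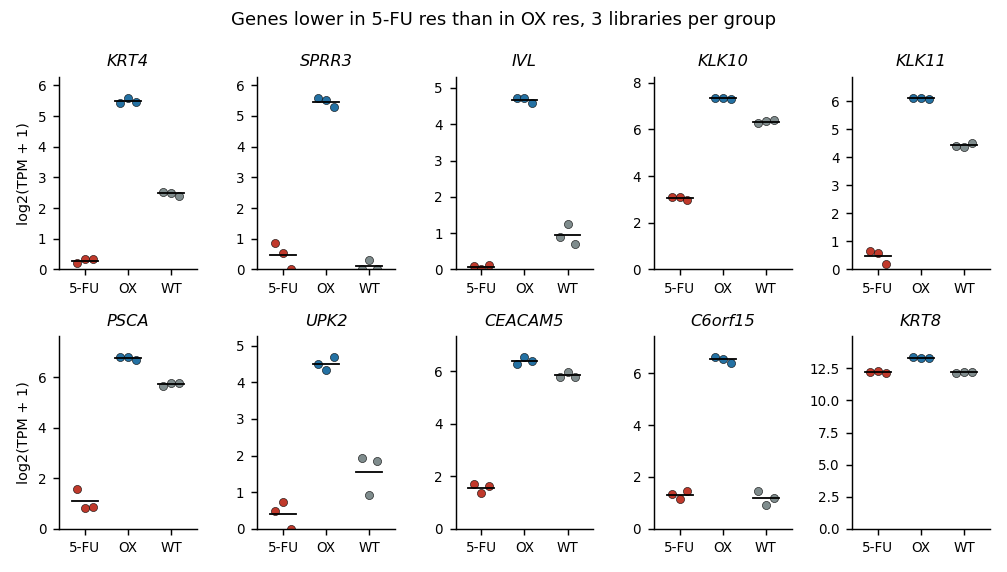
Levels of 10 of the lower genes on a log2(TPM + 1) scale, a point per library and a bar at the mean of 3 libraries, for 5-FU res, OX res and WT DLD-1 cells. OX res points lie above all others in each panel, while the WT points lie near 5-FU res for SPRR3, IVL and KRT8 and near OX res for CEACAM5 and PSCA.

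Junction genes moved less. Of 41 epithelial junction genes, 28 were lower and 4 higher (43.7% and 17.8% of all genes), with a median of −0.43, and 26 and 8 after median-of-ratios scaling. The desmosomal cadherin DSC2 (−2.37) and the epithelial transcription factors GRHL1, OVOL1 (−1.63) and EHF (−1.53) were lower. CLDN7, ESRP1, CLDN2 and ST14 were the higher members, at 0.74, 0.70, 0.63 and 0.28, and CDH1 (E-cadherin) had 0.07 and did not pass. Mesenchymal genes went in both directions, with 11 of 20 higher and 7 lower (17.8% and 43.7% of all genes), and 13 and 5 after median-of-ratios scaling. CALD1 (1.41), MMP14 (1.22) and SPARC (1.18) were higher, while CAV1 (−1.86), CAV2 (−1.38), S100A4 (−1.30), PLAU (−1.27) and VIM (−0.42) were lower. CAV1 had 9.08, 8.93 and 10.2 TPM in 5-FU res cells against 36.8, 37.1 and 36.4 TPM in OX res cells. CAV1, CAV2 and CALD1 lie in the part of chromosome 7 whose genes had a median of −0.44, and its part in their values was not tested. Among integrins, matrix and protease genes, ANXA1, an annexin, had 182, 178 and 151 TPM in 5-FU res cells against 708, 733 and 724 TPM in OX res cells, where WT had 126 to 135 TPM.

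Genes of the dividing cell were lower without exception among those listed. All 58 DNA replication genes and all 47 mitosis genes tested were lower (43.7% of all genes), with medians of −0.96 and −0.89, and the same counts held after median-of-ratios scaling. MKI67, the proliferation antigen, had 68.3, 72.1 and 62.6 TPM in 5-FU res cells, against 161, 190.1 and 178 TPM in OX res cells and 111 to 121 TPM in WT (log2 fold change −1.37, SE 0.0723, adjusted p = 2.44e-08). The S-phase transcription factors E2F2, E2F8 and E2F1 had −1.91, −1.63 and −1.38, and GINS2, a part of the replicative helicase, had −1.35. E2F1 averaged 22.1 ± 1.4 TPM in 5-FU res and 59 ± 3.04 TPM in OX res (SD, n = 3 each). The mitotic genes SPC24 (−1.35), CDCA8 (−1.25), KIF23 (−1.20) and AURKB (−1.17) led theirs, and CDC20 was the least changed at −0.39. WT lay between the resistant groups. For DNA replication, 55 of 58 genes had every 5-FU res library below every WT library (31.3% of all genes) and 57 had every OX res library above every WT library (45.8%). For mitosis these counts were 43 and 47 of 47. Summed TPM of the replication list was 2997 to 3245 in 5-FU res, 6020 to 6246 in OX res and 4456 to 4537 in WT.

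Inhibitors of cyclin-dependent kinases went in both directions. CDKN2C (p18), which inhibits CDK4 and CDK6, had 6.54, 4.62 and 5.95 TPM in 5-FU res cells, against 29.1, 31.2 and 30.4 TPM in OX res cells and 17.1 to 19.3 TPM in WT (log2 fold change −2.23). CDK6 (−1.41, on the same stretch of chromosome 7), RBL1 (−1.21), CDKN2D (−1.16) and CDKN1A (−0.59) were lower, and CDKN1B was higher at 0.42, while CDKN1C (0.19, adjusted p = 0.334) and CDKN2B (−0.28, adjusted p = 0.123) did not pass. The list of 16, which also holds cyclins, kinases and RB family genes, had 12 lower and 2 higher (43.7% and 17.8% of all genes).

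Fanconi anaemia and homologous recombination genes were mostly lower as well. Of 28 tested, 25 were lower (43.7% of all genes), 1 higher (FANCF, 0.30) and 2 not called (RAD50 and NBN), with a median of −0.94. BRCA2, a mediator of homologous recombination, had 3.73, 4.57 and 3.78 TPM in 5-FU res cells, against 11, 13 and 11.4 TPM in OX res cells and 7.09 to 7.98 TPM in WT (log2 fold change −1.35, SE 0.109, adjusted p = 7.3e-07). BRIP1 (−1.33), BRCA1 (−1.31), BARD1 (−1.26) and FANCD2 (−1.19) moved with it. BRCA1 averaged 15.4 ± 1.6 TPM in 5-FU res and 39.5 ± 0.53 TPM in OX res (SD, n = 3 each). Mismatch repair had 7 of 10 lower (43.7% of all genes) and 0 higher, led by PCNA (−1.09), which replication shares. The mismatch gene MSH6 had 10.2, 11 and 9.35 TPM in 5-FU res cells against 15.8, 14.2 and 16.2 TPM in OX res cells (log2 difference −0.56). Translesion polymerases and their regulators had 7 of 11 lower (43.7% of all genes) and 0 higher. POLQ was at −1.22, RAD18 at −0.81 and POLH, which bypasses platinum adducts, at −0.79. Nucleotide excision repair was near the shares of all genes, with 12 of 28 lower and 5 higher, and 7 lower and 10 higher after median-of-ratios scaling. Its damage sensor DDB2 was lower (−1.16), while ERCC1, the nuclease subunit often studied in platinum resistance, had −0.21 (adjusted p = 0.0151) on TPM and −0.05 (adjusted p = 0.504) after median-of-ratios scaling.

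The drug targets and carriers followed. TYMS, the target of 5-FU, had 112, 112 and 106 TPM in 5-FU res cells, against 274, 278 and 259 TPM in OX res cells and 172 to 179 TPM in WT (log2 fold change −1.29, SE 0.0533, adjusted p = 3.45e-09). It is also one of the replication genes, and its fall lay within their range. Of 34 genes of 5-FU activation and catabolism, 25 were lower and 6 higher (43.7% and 17.8% of all genes), with a median of −0.44, and 21 and 7 after median-of-ratios scaling. The nucleotide enzymes RRM2 (−1.24), TK1 (−1.11) and UMPS (−0.80), which makes the first 5-FU nucleotide with phosphoribosyl pyrophosphate, the uridine kinase UCK2 (−0.67) and the nucleoside carrier SLC29A1 (−0.89) were lower. UMPS had 12.9, 12.3 and 10.7 TPM in 5-FU res cells against 21.3, 22.8 and 20.7 TPM in OX res cells, with no overlap. Uridine phosphorylase UPP1 was higher at 0.48, with 39.7 to 41.7 TPM in 5-FU res, 26.5 to 30 TPM in OX res and 17.9 to 19.5 TPM in WT. SHMT2, mitochondrial serine hydroxymethyltransferase, was the highest of the list at 1.15 and belongs to the ATF4 list as well. DPYD, the main catabolic enzyme of 5-FU, was at most 0.0932 TPM in the 6 libraries and TYMP at most 0.845 TPM, so neither was tested.

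Of 17 platinum transport and binding genes, 11 were lower and 2 higher (43.7% and 17.8% of all genes), and 9 and 5 after median-of-ratios scaling. The metallothionein MT1E, a metal-binding protein with close paralogs, had 243, 235 and 234 TPM in 5-FU res cells, against 531, 648 and 542 TPM in OX res cells and 349.8 to 364 TPM in WT (log2 fold change −1.26). MT2A had −0.36, with 691 to 740.4 TPM in 5-FU res and 855 to 1017 TPM in OX res, both above WT at 449 to 464 TPM. The organic cation carrier SLC47A1 (−1.57), the pump ABCC3 (−0.96) and the copper pump ATP7A (−0.65) were lower, and the pump ABCC2 was higher at 0.98 from a low level of 1.92 to 2.28 TPM. The copper carrier SLC31A1 (−0.23, adjusted p = 0.0202) and ATP7B (−0.38, adjusted p = 0.0119) passed on TPM and lost the call after median-of-ratios scaling (adjusted p = 0.336 and 0.064). SLC31A1 also lost it without 5-FU res replicate 3 (adjusted p = 0.0699) and without OX res replicate 2 (adjusted p = 0.0816), and ERCC1 without 5-FU res replicate 2 (adjusted p = 0.0509). ABC transporters as a whole had 5 of 27 higher and 12 lower, the shares of all genes (17.8% and 43.7%), and 11 and 9 after median-of-ratios scaling.

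Of the genes the naming rule allows, HSD17B2 and UGT1A1 had the 2 largest rises. HSD17B2, which oxidises oestradiol and testosterone, had 40.6, 43 and 38.9 TPM in 5-FU res cells, against 0.27, 0.39 and 0.51 TPM in OX res cells and 6.78 to 8.51 TPM in WT. Its log2 fold change of 4.91 (SE 0.104, adjusted p = 2.65e-11) was the larger. HSD3B1, another steroid dehydrogenase, was higher by 2.84 and reached 7.52 to 10.1 TPM in 5-FU res. HSD17B2 and HSD3B1 passed the filter through 5-FU res alone. UGT1A1 and UGT1A6, which attach glucuronic acid to bilirubin and phenols, were higher by 4.53 and 2.75. UGT1A6 had 135, 133 and 112 TPM in 5-FU res cells, against 20.4, 17.3 and 16.3 TPM in OX res cells and 73.5 to 77.9 TPM in WT. UGT1A1 had 22.3 to 30.8 TPM in 5-FU res and was listed at 0 in 2 of the 3 OX res libraries. UGT1A3, UGT1A4 and UGT1A5 reached 1.33 to 1.74 TPM on average in 5-FU res cells and, like UGT1A1, passed the filter through that group. The UGT1A genes share their last exons, so how reads were divided among them is uncertain. In the wider NRF2 and glutathione list, 22 of 43 genes were higher and 13 lower, with a median of 0.18, and 25 and 7 with a median of 0.35 after median-of-ratios scaling. Of all genes, 17.8% were higher and 43.7% lower. GSTM4, a glutathione transferase, had 281, 278 and 284 TPM in 5-FU res cells against 80.9, 78.8 and 76.1 TPM in OX res cells (log2 difference 1.83). Ferritin light chain FTL had 1.23 and NQO1 0.46, while the rate-limiting glutathione enzymes GCLC and GCLM had 0.02 (not passing) and −0.18. Aldo-keto reductases and aldehyde dehydrogenases had 12 of 24 lower, near the 43.7% of all genes, and 2 higher.

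The EGF receptor ligands EREG and AREG were among the highest genes. EREG (epiregulin) had 218, 224 and 199 TPM in 5-FU res cells, against 18.4, 22.4 and 21.1 TPM in OX res cells and 107 to 116 TPM in WT (log2 fold change 3.31, SE 0.0766, adjusted p = 5.21e-11). AREG (amphiregulin) had 24.9, 29.9 and 26.3 TPM in 5-FU res cells, against 3.85, 2.91 and 2.94 TPM in OX res cells and 7.08 to 10.2 TPM in WT (log2 fold change 2.73). For both ligands the OX res libraries lay below WT and the 5-FU res libraries above it. Of the other ligands tested, EGF (0.90) and HBEGF (0.35) were higher, and BTC (0.24, adjusted p = 0.21) and TGFA (−0.11, adjusted p = 0.151) did not pass. The receptor EGFR had −0.07 and did not pass, whereas ERBB3 (−1.17) and ERBB2 (−0.95) were lower. Feedback genes of the MAPK pathway split: SPRY4 (1.29), ETV5 (1.09) and DUSP6 (0.62) were higher, and DUSP4 (−1.28) and LRIG1 (−1.30) were lower. In the whole list 18 of 33 genes were higher and 8 lower, with a median of 0.24, against 17.8% and 43.7% of all genes, and 22 and 8 after median-of-ratios scaling.

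Other genes among the 15 largest rises had varied roles. L3MBTL3, a reader of histone methylation, had 61.4, 62 and 52.4 TPM in 5-FU res cells against 6.34, 6.34 and 6.25 TPM in OX res cells (log2 difference 3.02). SLC43A1, an amino acid carrier, averaged 44.2 ± 2.7 TPM in 5-FU res and 4.34 ± 0.11 TPM in OX res (SD, n = 3 each). CHI3L1 (3.30), EPS8L3 (3.19), KCNJ5 (3.04), SH3BGRL (2.97), LAMA2 (2.92) and IL37 (2.87) were among them, with WT between the resistant groups in each. TGFBI, an extracellular matrix protein induced by TGF-β, had 449, 460 and 423 TPM in 5-FU res cells against 105, 103 and 101 TPM in OX res cells, where WT had 127 to 134 TPM. TGF-β ligands and relatives went both ways, with INHBB at −2.24, TGFB3 at −1.86 and BMP2 higher. Of 39 TGF-β signalling genes 11 were higher and 17 lower (17.8% and 43.7% of all genes), or 16 and 14 after median-of-ratios scaling.

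Of the 13 surface and stem cell markers that the study used for CRC, 9 were tested. Of these, 7 were lower (43.7% of all genes), or 5 after median-of-ratios scaling, and 1 was higher (17.8% of all genes). DPP4 (CD26) was the higher one. It had 33.5, 34.3 and 30.7 TPM in 5-FU res cells against 3.4, 3.98 and 3.45 TPM in OX res cells, but 44 to 48.7 TPM in WT (log2 fold change 2.88). ALDH1A1 had 0.69, 0.46 and 0.23 TPM in 5-FU res cells, against 14.4, 12.9 and 12.4 TPM in OX res cells and 7.81 to 8.08 TPM in WT (log2 fold change −3.30). CD24 had 113, 116 and 109.8 TPM in 5-FU res cells against 503, 513 and 526 TPM in OX res cells, with WT between them at 224 to 244 TPM (log2 fold change −2.18). CD44 (−0.77), LGR5 (−0.51) and EPCAM (−0.31) were lower with groups that did not overlap. ALCAM (−0.26) and ITGB1 (−0.19) lost the call after median-of-ratios scaling (adjusted p = 0.102 and 0.694), and ITGAV had −0.15 (adjusted p = 0.0907). ITGB1 also lost it without OX res replicate 3 (adjusted p = 0.0507), and ITGAV passed without OX res replicate 1 (−0.22, adjusted p = 0.0179). SOX2 was listed at 0, and NANOG, PROM1 and POU5F1 were too low to test, at no more than 0.18, 1.05 and 1.78 TPM. In the wider list of stem cell and WNT feedback genes 19 of 28 were lower and 7 higher under either scaling (43.7% and 17.8% of all genes on TPM). ASCL2, a transcription factor of intestinal stem cells, had 37.3, 38.9 and 42.9 TPM in 5-FU res cells against 163, 119 and 121 TPM in OX res cells. Genes that dampen WNT signals went both ways, with KREMEN1 (−2.14) and APCDD1 (−1.95) lower and NKD2 (1.40) higher. Intestinal differentiation genes had 16 of 27 lower and 8 higher (43.7% and 17.8% of all genes), and 12 and 11 after median-of-ratios scaling.

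Of 35 cell death regulators, 10 were lower and 7 higher (43.7% and 17.8% of all genes), or 9 and 16 after median-of-ratios scaling. PMAIP1 (NOXA), a BH3-only death protein known as an ATF4 target, had 84, 80.4 and 74.6 TPM in 5-FU res cells against 30.5, 29 and 30.6 TPM in OX res cells (log2 difference 1.38). The survival protein BCL2L1 had 144, 149 and 134 TPM in 5-FU res cells against 278, 278 and 264 TPM in OX res cells (log2 difference −0.94), where WT had 127 to 139.8 TPM. BCL2 was low in both groups, with −1.27. Of 30 p53 targets, 15 were lower and 6 higher, near the shares of all genes (43.7% and 17.8%), and 13 and 12 after median-of-ratios scaling. SERPINB5 (maspin), also an epithelial gene, was the lowest at −2.77. Among genes of MHC class I presentation 12 of 18 were lower and 5 higher (43.7% and 17.8% of all genes), or 10 and 5 after median-of-ratios scaling. The immunoproteasome subunit PSMB9 led, with 3.6, 3.6 and 4.15 TPM in 5-FU res cells, against 27.5, 24.5 and 26.4 TPM in OX res cells (log2 difference −2.50). HLA-B followed (−1.02). Of the higher members, CALR, CANX and PDIA3 are also in the unfolded protein response list, whereas PSMB10 and ERAP2 are not.

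Cytosolic ribosomal proteins were higher by a small and even margin. Of 78 genes, 58 were higher and 4 lower (17.8% and 43.7% of all genes), with a median of 0.31, and 72 and 0 after median-of-ratios scaling. They took 19 ± 0.93% of TPM in 5-FU res and 15.3 ± 0.41% in OX res (SD, n = 3 each, exact permutation test p = 0.1, the smallest that 3 against 3 allows). WT stood at 19.8% to 20.4%, which is nearer to 5-FU res, and 74 of the 78 genes had every OX res library below every WT library (13.7% of all genes). RPL5 led with 0.72. RPL21, the lowest at −1.29, rested on uneven values of 39, 43.7 and 229.9 TPM in 5-FU res and 132, 216 and 209 TPM in OX res that overlapped, and it lost the call after median-of-ratios scaling (adjusted p = 0.133) and without 5-FU res replicate 1, 5-FU res replicate 2, OX res replicate 2 or OX res replicate 3 (adjusted p 0.083 to 0.144).

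For 10 of the 33 gene lists other than cell type markers, the median changed sign between the 2 scalings, and no direction is given for them. They include the respiratory chain (14 of 77 higher and 17 lower on TPM, 43 and 13 after median-of-ratios scaling), ribosome biogenesis and MYC targets (11 and 18 of 52, then 25 and 12), cholesterol and fatty acid synthesis (4 and 14 of 35, then 13 and 9), interferon-stimulated genes (10 and 12 of 40, then 15 and 8), NF-κB response genes (9 and 10 of 25, then 11 and 8) and integrins, matrix and proteases (14 and 14 of 32, then 15 and 9). Hypoxia and glycolysis genes had 11 of 39 in each direction, or 22 higher and 9 lower. Single members still moved well beyond either scaling. VEGFA, a hypoxia-inducible growth factor, was higher by 1.37 and the glucose carrier SLC2A3 by 2.38, while the glucose carrier SLC2A1 was lower at −1.32 and TXNIP, its negative regulator, at −1.82. INSIG1, a sterol sensor partner, was lower at −1.22. It lies in the part of chromosome 7 whose genes had a median of −0.44, and the part of that region in its value was not tested. The plot of list counts sets each list against the shares of all genes, 17.8% higher and 43.7% lower on TPM.

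**Figure D4:**
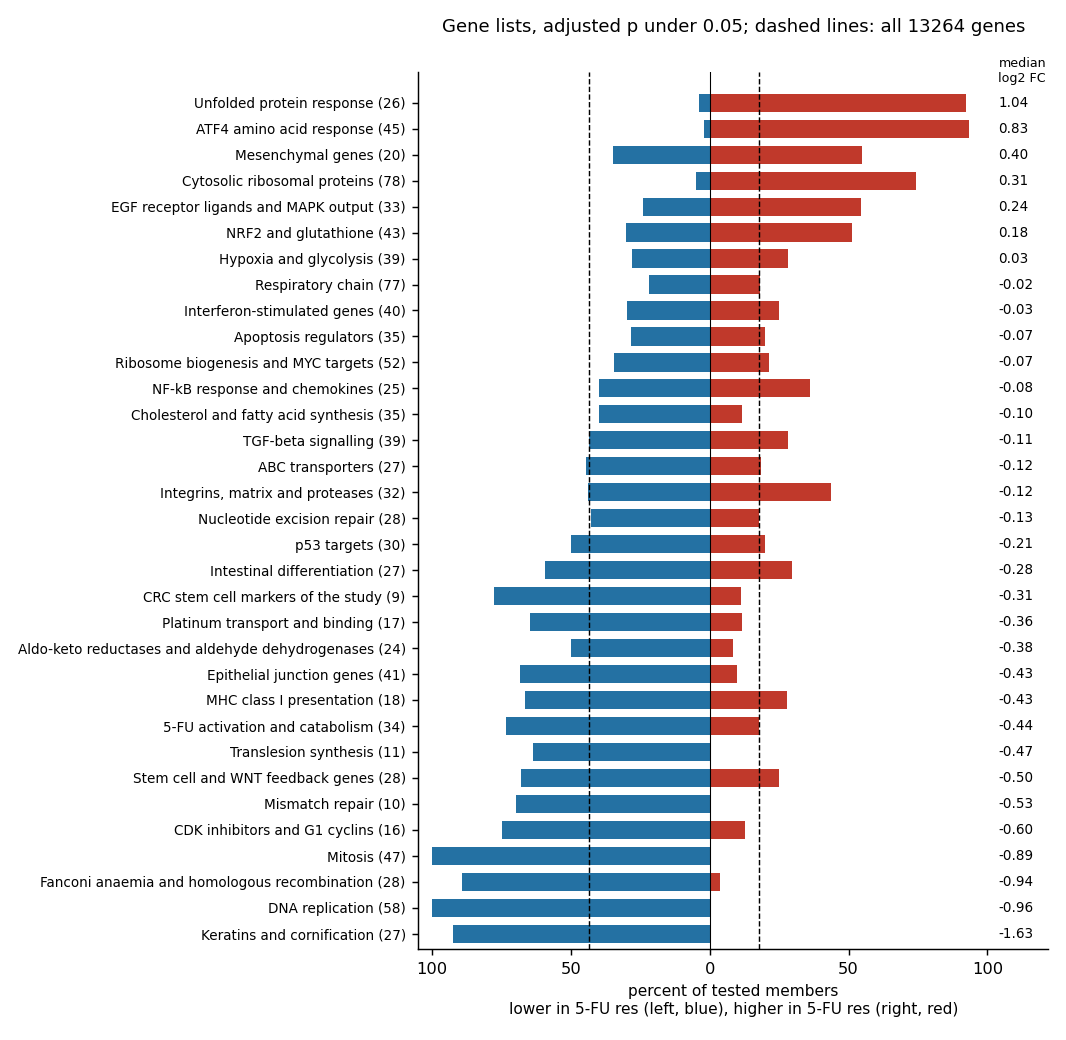
For each of 33 gene lists (tested members in brackets), the percentage of members lower in 5-FU res cells is drawn to the left and the percentage higher to the right, at an adjusted p under 0.05, with the median log2 fold change at the right edge. Dashed lines mark the shares of all 13264 genes, 43.7% lower and 17.8% higher, and lists run from the unfolded protein response at the top to keratins and cornification at the bottom.

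The difference between 5-FU res and OX res cells was then set beside the same difference in HCT116 and SW480 cells, in a fit over the 18 resistant libraries and 15669 genes. It was unlike in DLD-1 and HCT116 for 4098 genes (26.2%) and unlike in DLD-1 and SW480 for 3240 genes (20.7%), by an interaction test at an adjusted p under 0.05 and a difference beyond 1. Of the 1146 genes changed in DLD-1, 845 were unlike HCT116 and 921 unlike SW480. These genes were picked for a difference in the same DLD-1 libraries. One that was flat or absent in another line was therefore likely to be called unlike. The median over all genes in this fit was −0.11 in DLD-1, −0.28 in HCT116 and 0.04 in SW480. By themselves, HCT116 cells had 3147 changed genes (722 higher and 2425 lower) and SW480 cells 1573 (919 higher and 654 lower). In HCT116, 164 of the 1146 were changed the same way and 240 the opposite way, and in SW480, 59 and 146.

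Stress genes went opposite ways in DLD-1 and HCT116. The counts below use the adjusted p alone, and the shares of all genes called so in HCT116 and SW480 are not given here. Over all genes the median was −0.28 in HCT116 and 0.04 in SW480. More genes were changed lower than higher in HCT116 (2425 and 722), and fewer in SW480 (654 and 919). In HCT116 cells 24 of the 26 unfolded protein response genes were lower in 5-FU res than in OX res and 0 higher, with a median of −1.16, and in SW480 cells 6 were lower and 11 higher, with a median of 0.08. HSPA5 averaged 141 TPM in 5-FU res and 645 TPM in OX res HCT116 cells, and 301 and 277 TPM in the same groups of SW480 cells. DDIT3 averaged 20.9 TPM in 5-FU res and 328 TPM in OX res HCT116 cells, a log2 fold change of −3.91 where DLD-1 had 2.86. The ATF4 list had 35 of 45 lower in HCT116 and 27 of 45 lower in SW480. Cell cycle genes were also opposite in HCT116, with 52 of 58 replication genes and 45 of 47 mitosis genes higher in 5-FU res cells, and medians of 0.78 and 1.49. In SW480 their medians were 0.16 and −0.08. The widest gap between DLD-1 and HCT116 among the list medians was in interferon-stimulated genes, where all 40 were lower in HCT116 with a median of −3.45, against −0.03 in DLD-1.

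The epithelial genes had little to set beside them. KRT4, SPRR3, KLK11 and IVL averaged at most 2.26, 0.14, 0.61 and 1 TPM in any resistant group of the other lines. PSCA averaged 0.73 TPM in 5-FU res and 2.29 TPM in OX res HCT116 cells. HSD17B2 was shared with SW480, where it averaged 54.3 TPM in 5-FU res and 0.82 TPM in OX res (log2 fold change 4.94), but it was listed at 0 in the resistant HCT116 cells. CHI3L1 went the other way in SW480, with 8.18 TPM in 5-FU res and 54.2 TPM in OX res. GDF15 averaged 973 TPM in 5-FU res and 1610 TPM in OX res HCT116 cells, and 73.9 and 36 TPM in the same groups of SW480 cells. The plot of list medians in the 3 lines shows DLD-1 and HCT116 on opposite sides of 0 for the stress, cell cycle, junction and 5-FU metabolism lists.

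**Figure D5:**
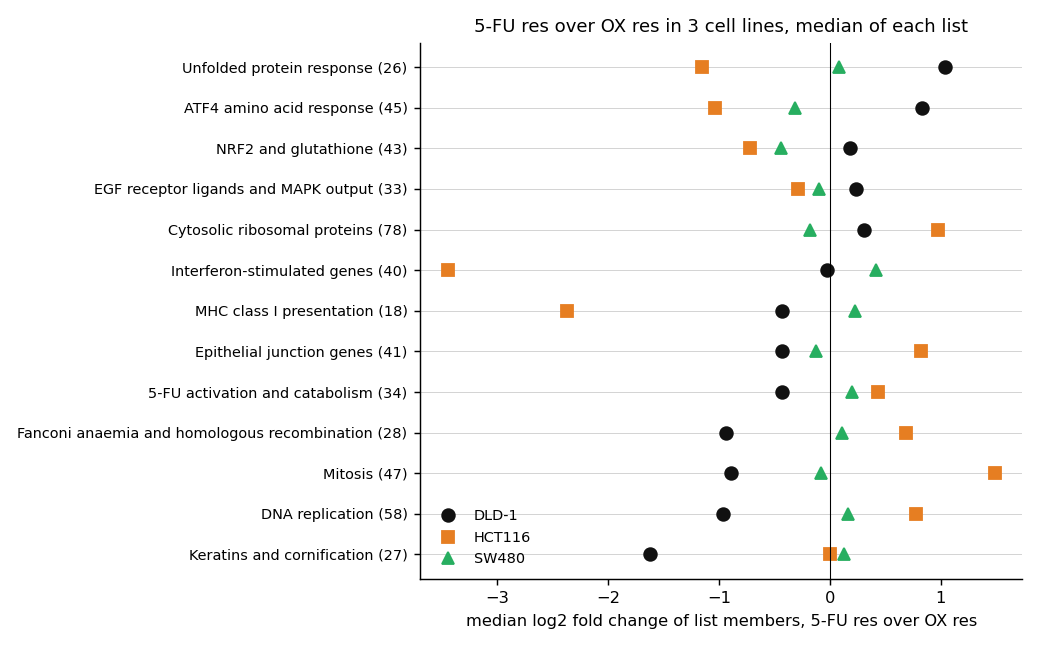
Median log2 fold change of 5-FU res over OX res (x axis) for the members of 13 gene lists (numbers tested in brackets), in DLD-1 (circles), HCT116 (squares) and SW480 (triangles), from the fit over 18 resistant libraries. The unfolded protein response has 1.04 in DLD-1, −1.16 in HCT116 and 0.08 in SW480, and mitosis −0.89, 1.49 and −0.08.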

How the data were processed

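RNA was extracted with a miRNeasy Micro kit, and libraries were made with a TruSeq stranded mRNA kit and sequenced as single reads. The authors deposited 1 table of FPKM values per library, for 26255 gene symbols. The submitters' processing notes name TopHat2 2.1.1, Bowtie2 2.2.8, SAMtools 0.1.18 and Cuffdiff 2.2.1, and the build hg19. The number of reads is not given in the sources used here. The steps between low FPKM values gave depths, relative to WT replicate 1, of 0.82 to 0.95 in 5-FU res and 0.656 to 0.962 in OX res.

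FPKM was divided by the library sum to give TPM. Genes with at least 1 TPM in 3 of the 6 libraries were tested on log2(TPM + 1) with limma 3.58.1 (trended eBayes) in R 4.3.3, and p-values were adjusted by Benjamini-Hochberg over all genes tested. Genes past both 0.05 in adjusted p and 1 in absolute log2 fold change are called changed. Members of lists are called higher or lower by the adjusted p alone. The interaction with cell line was fitted over 18 libraries. Shares of TPM were compared with a two-sided exact permutation test. The steps were tested on simulated data. Figures used Python 3.11.15 and matplotlib 3.10.9.

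Genes were named by a rule: the 15 largest changes in each direction among changed genes whose groups did not overlap, small RNA genes left out, the 4 largest called members of each of 37 lists, the stem cell markers of the study with GDF15, and 14 genes of drug handling. Other genes named were chosen after their values were seen. Some genes that the rule picks are not reported here. The members and lists were chosen with earlier results of these data known. Gene positions and lengths (GENCODE on GRCh37) were found for 22422 symbols as written and for 1363 through an older name, and for 2470 they were not found. Alternatives were median-of-ratios and quantile scaling, FPKM as deposited, small RNA genes left out, another pseudocount, other filters, eBayes without trend, all 9 DLD-1 libraries in the fit, a replicate block, removal of a length trend, and each library left out.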

Additional observations from a re-analysis of the deposited data

Results flagged for a closer look

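The difference between 5-FU res and OX res cells was not the same in the 3 lines, by the interaction test in limma (adjusted p under 0.05 and a difference beyond 1). It was unlike for 4098 genes between DLD-1 and HCT116 and for 3240 genes between DLD-1 and SW480. The values that follow are the log2 fold change in DLD-1 minus that in the other line. Where a gene was near 0 TPM in the other line, the value mostly repeats the DLD-1 fold change.

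Against HCT116, the differences of stress genes were 5.19 for HERPUD1, 4.35 for HSPA5 and 6.78 for DDIT3. Against HCT116, the differences of genes that led the rise were 4.91 for HSD17B2, 4.53 for UGT1A1, 2.75 for UGT1A6, 2.93 for EREG, 1.92 for AREG, 3.30 for CHI3L1 and 3.42 for EPS8L3. HSD17B2, UGT1A1 and CHI3L1 were listed at 0 in the resistant HCT116 cells. UGT1A6, EPS8L3, EREG and AREG averaged at most 0.182, 0.173, 1.08 and 1.57 TPM in either group there. Against HCT116, the differences of epithelial genes were −4.75 for PSCA, −5.60 for KLK11, −4.95 for C6orf15, −5.09 for KRT4, −5.08 for SPRR3, −5.59 for IVL and −3.68 for SCEL. In resistant HCT116 cells PSCA averaged at most 2.29 TPM and IVL 0.999 TPM. KLK11, C6orf15, KRT4, SPRR3 and SCEL averaged at most 0.259 TPM there. Against HCT116, the differences of growth and nucleotide genes were −2.43 for CDKN2C and −1.86 for TYMS.

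Against SW480, the differences of stress genes were 2.71 for HERPUD1, 2.05 for HSPA5 and 2.57 for DDIT3. Against SW480, the differences of genes that led the rise were 4.66 for UGT1A1, 2.49 for UGT1A6, 3.11 for EREG, 2.83 for AREG, 5.88 for CHI3L1 and 1.96 for EPS8L3. Of these, UGT1A1 and AREG averaged at most 0.0982 and 0.746 TPM in resistant SW480 cells. Against SW480, the differences of epithelial genes were −6.32 for PSCA, −6.11 for KLK11, −6.57 for C6orf15, −6.78 for KRT4, −5.07 for SPRR3, −4.68 for IVL and −3.60 for SCEL. In resistant SW480 cells KLK11, SPRR3, IVL and SCEL averaged at most 0.61 TPM, and PSCA, KRT4 and C6orf15 at most 3.62 TPM. Against SW480, the differences of growth and nucleotide genes were −2.99 for CDKN2C and −1.61 for TYMS.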

How the results depend on the processing

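No named gene that passed the test changed sign in any alternative, whereas the medians of 10 of 33 gene lists changed sign under median-of-ratios scaling. Of 172 named genes that passed the test, 163 kept the call in every setting that could be fitted. The count of changed genes was 1146 on TPM, 760 on FPKM as deposited, 1002 after median-of-ratios scaling and 992 after quantile normalization. The lower count of 804 was 534 after quantile normalization, 440 on FPKM as deposited and 524 with a length trend removed, and the higher count of 342 was 202 with a mean TPM of 5 or more, where fewer genes were tested. The cause of the other shifts was not tested. The changed genes shared with TPM numbered 906 under median-of-ratios, 875 under quantile and 714 under FPKM as deposited. Leaving out each library gave 1043 to 1108 changed genes, 245 to 346 higher and 698 to 863 lower, 4068 to 4129 unlike HCT116 and 3199 to 3290 unlike SW480. Same-numbered libraries did not pair (correlations of deviations −0.11, −0.0091 and 0.13), and a replicate block gave 1147 changed genes (345 higher, 802 lower), 4101 unlike HCT116 and 3245 unlike SW480. Depth is known only in relative terms, so no counting error is given for low genes.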

Other observations

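Genes on the long arm side of chromosome 7 were lower in 5-FU res cells as a block. From 60 Mb on (GRCh37), 427 tested genes had a median log2 fold change of −0.44, against −0.15 for 213 genes before 60 Mb and −0.15 for 12239 genes on other chromosomes. Of the 427 genes, 298 were lower at an adjusted p under 0.05 (69.8%), against 43.2% on other chromosomes, and after median-of-ratios scaling 59.3% were lower, against 30.8%. Relative to WT, the same genes had a median of 0.45 in OX res cells and −0.01 in 5-FU res cells. Genes on other chromosomes had 0.13 and −0.02, and those before 60 Mb 0.15 and −0.04. This region was picked after its values were seen.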
